A study of Mus musculus with 18 samples.

Results

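The 9 genes described here encode cytokines and receptor chains of the interleukin-6 and CNTF family, out of 55573 genes in the count table of ipsilateral dorsal horn of the spinal cord (DHSC). They are 5 ligands, *Il6*, *Il11*, *Lif*, *Cntf* and *Clcf1*, and 4 receptor chains, *Il6ra*, *Cntfr*, *Lifr* and *Il6st*. They were selected by gene symbol, and the family itself was chosen by measured values of these samples, namely the higher *Cntf* counts of males that the study had named. The male values of *Cntf* are therefore a description, with no p-value, and nothing is read from whether *Cntf* passes a threshold between males and females. Such calls are given to show on which samples they rest.

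Cytokines of this family act through complexes that share the transmembrane chain gp130, the product of *Il6st*. IL-6 first binds its own receptor chain, encoded by *Il6ra*, LIF joins gp130 to the LIF receptor, and CNTF and CLCF1 use both of these chains together with the CNTF receptor encoded by *Cntfr*. The assembled complexes switch on JAK kinases and the transcription factor STAT3, and SOCS3 brakes the signal. In nervous tissue CNTF is known as a product of myelinating Schwann cells and astrocytes, and IL-6 and LIF are known for their induction after nerve injury and inflammation.

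All samples came from adult C57BL/6J mice of 8 to 12 weeks whose hindpaw had received 2% formalin at 8 µl per 20 g of body weight, and the ipsilateral lumbar DHSC was taken 2 h later. The groups were 6 Male samples, 6 F1/proestrus samples and 6 F2/metestrus samples, F1 and F2 being the study's names for females with a short and a long pause between the phases of pain behavior, and proestrus and metestrus the stages of their cycle. Every group was injected, so the values describe tissue after formalin and hold no comparison with uninjected tissue. By the study's own account n counts animals, whereas the labels name samples only, and p-values measure the spread between these samples.

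Between 73590509 and 125724156 reads were counted on genes per sample, with a median of 102556432. Expression is given as CPM, the counts of a gene scaled to library size after TMM normalization. A count of 0 allows up to 3 counts, or 0.0240 to 0.0407 CPM, by counting error alone. Libraries carried numbers of 2 series, 27 to 35 for replicates 1 to 3 of each group and 188 to 196 for replicates 4 to 6. Each of the 7 markers of dorsal horn neurons was detected, and their summed level was 131.8 to 228.5 CPM across samples. A pair of libraries stood apart. F1/proestrus replicate 5 had 583 CPM of 6 sensory ganglion neuron markers, where the remaining 17 samples held 6.12 to 58.6 CPM. Male replicate 5 had the highest sum of 10 Schwann cell markers, 4980 CPM. Both stay in the fits, and values without them are given where they bear on a result.

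The 250 bases before the annotated start were available for 8 of the 9 genes in the RefSeq promoters of GRCm38.p6, over 15 start windows. Those of *Il6*, *Cntf* and *Il6st* are printed. Over all samples, males included, the first 2 are the least and the most expressed of the family per exon length. *Il6st* encodes the chain that all of them share. Capitals mark matches to TGANTCA, the core of AP-1 sites, or to GGGA and TTCC set 2 bases apart, a form of the NF-kB site. Both strands were searched, also for the STAT motif, TTC and GAA set 3 or 4 bases apart, and no matches of different motifs overlapped. The windows lie at chr5:30012864-30013113 on the plus strand, chr19:12765633-12765882 on the minus strand and chr13:112463820-112464069 on the plus strand.
Il6: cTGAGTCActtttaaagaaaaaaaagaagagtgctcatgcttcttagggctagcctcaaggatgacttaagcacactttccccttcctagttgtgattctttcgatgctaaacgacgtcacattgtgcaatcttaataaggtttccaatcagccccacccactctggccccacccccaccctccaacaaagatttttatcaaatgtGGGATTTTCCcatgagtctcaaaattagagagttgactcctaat
Cntf: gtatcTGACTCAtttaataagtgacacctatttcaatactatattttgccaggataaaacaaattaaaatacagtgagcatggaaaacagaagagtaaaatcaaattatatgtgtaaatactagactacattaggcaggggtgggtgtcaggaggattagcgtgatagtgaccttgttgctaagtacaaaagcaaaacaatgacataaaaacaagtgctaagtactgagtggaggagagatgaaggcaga
Il6st: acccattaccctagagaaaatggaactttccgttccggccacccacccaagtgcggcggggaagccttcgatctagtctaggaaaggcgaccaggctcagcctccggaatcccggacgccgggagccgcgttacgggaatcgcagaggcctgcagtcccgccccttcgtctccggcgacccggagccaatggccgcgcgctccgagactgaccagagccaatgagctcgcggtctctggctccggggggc

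In the *Il6* window TGAGTCA starts 249 bases and GGGATTTTCC 44 bases before the gene. The *Cntf* window holds TGACTCA 245 bases before the start and lies within an intron of *Zfp91*. *Lif* has TGACTCA 228 bases before its start and *Il11* has TGAGTCA 98 bases before its internal start, whereas no window of the 4 receptor chains held any of the 4 motifs. No window of the family held a STAT motif. Of 32851 promoters of the same length, 6.75% held the AP-1 motif, 1.21% the NF-kB motif, 7.02% the STAT motif with 3 bases between and 5.85% that with 4. The *Il6st* window had a GC content of 66.0% with 26 CpG, that of *Il6* 42.8% with 3 CpG and that of *Cntf* 35.6% with 1 CpG, against medians of 52.4% and 6 CpG over all promoters. A match is a description of letters and was not tested as a binding site.

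The family was ordered by CPM per kilobase of exon, which allows genes of unlike length to be compared. *Cntf* had the highest mean, 27.0 ± 11.5 (SD, n = 18), followed by *Cntfr* with 19.7 ± 2.17, *Il6st* with 14.0 ± 1.77 and *Lifr* with 5.92 ± 1.06. The chain that binds IL-6, *Il6ra*, was 10.6-fold below *Lifr*, at 0.559 ± 0.0875. The other ligands were lower still, with 0.288 ± 0.0819 for *Clcf1*, 0.199 ± 0.0583 for *Lif*, 0.171 ± 0.0562 for *Il11* and 0.0170 ± 0.0135 for *Il6*. Thus the receptor chains used by CNTF all had levels above most tested genes, while 4 of the 5 ligands had levels below most tested genes. *Cntf* lay above 90.3% of the tested genes per exon length, *Cntfr* above 86.5%, *Il6st* above 81.6% and *Lifr* above 65.7%. *Il6ra* lay above 27.7%, *Il11* above 14.0% and *Il6* above 0.322%.

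**Figure D1:**
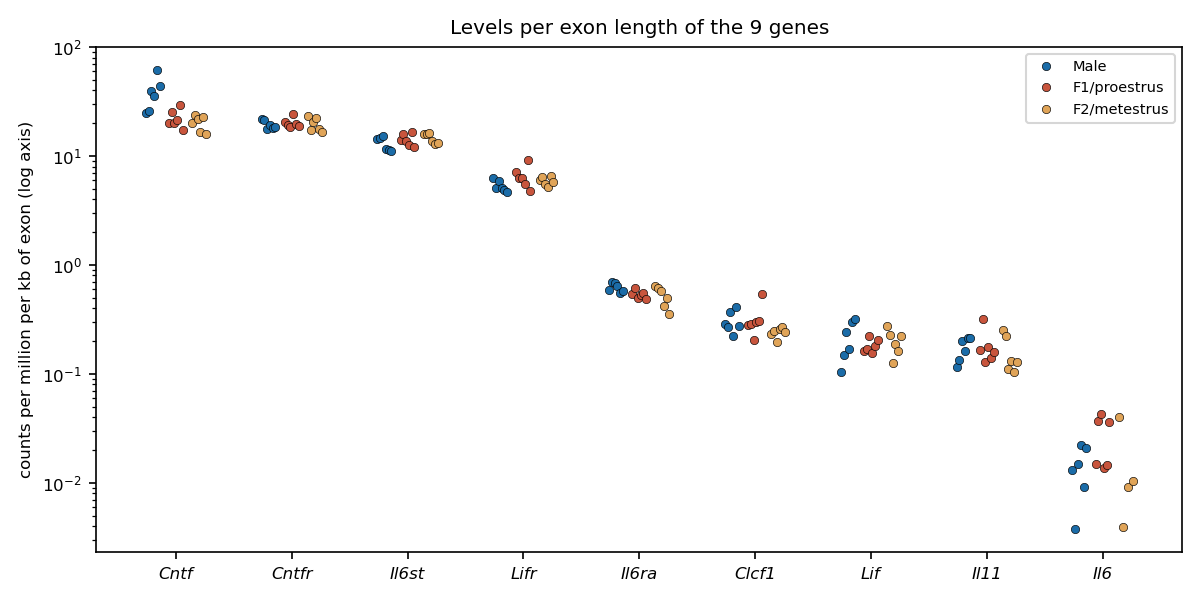
Level of the 9 genes in CPM per kilobase of exon on a log axis, 1 point per sample, colored by group. *Cntf* and *Cntfr* lead, *Il6ra* lies 10.6-fold below *Lifr*, and *Il6* is lowest, with 2 samples at 0 counts that a log axis cannot show.

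Not every step of this order was larger than the spread between samples. *Cntf* was above *Cntfr* in 12 of 18 samples and their ranges overlapped. Every male was among these 12, while females lay on both sides. The mean and top rank of *Cntf* thus hold the male values that chose the family and are a description. Ranges also overlapped for *Il6ra* and *Clcf1* (above in 17 of 18), *Clcf1* and *Lif* (15 of 18) and *Lif* and *Il11* (14 of 18). The ranges of *Cntfr* and *Il6st*, of *Il6st* and *Lifr*, of *Lifr* and *Il6ra* and of *Il11* and *Il6* did not overlap. Over the 18 samples *Cntf* had a coefficient of variation of 42.7%, against 11.0% for *Cntfr*, 12.7% for *Il6st* and 17.9% for *Lifr*. This spread of *Cntf* holds the male-female difference that chose the family. Among the 12 females alone *Cntf* had 22.8 ± 4.06 CPM, *Lifr* 67.0 ± 12.1, *Cntfr* 55.3 ± 6.69 and *Il6st* 160.0 ± 17.9 CPM (SD). There the spread of *Cntf* relative to its mean was close to that of *Lifr*. The level of *Cntf* carries a limit of annotation. Its GRCm38 position is chromosome 19, bases 12763660 to 12765632, minus strand, and 847 of its 1073 exon bases (78.9%) also belong to *Zfp91*, a zinc finger gene on the same strand that extends to 12796126. How reads over exons of several genes were counted is not stated, so reads of the 2 genes cannot be told apart there. The count of *Cntf* may hold reads of *Zfp91* or lack reads of its own. Only 226 of its exon bases are free of other genes, whereas the level per exon length divides by 1073. The level and rank of *Cntf* per exon length may therefore be too high or too low.

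*Cntf*, which encodes ciliary neurotrophic factor, had 26.7 CPM in the lowest Male sample, a median of 40.4 CPM and 66.0 CPM in the highest. In F1/proestrus the lowest value was 18.7, the median 22.4 and the highest 31.4 CPM, and in F2/metestrus these were 17.1, 22.5 and 25.6 CPM. Every male lay above every F2/metestrus sample, and 4 of 6 males lay above all 12 females, the remaining 2 falling within the F1/proestrus range. The male mean was 41.4 ± 14.5 CPM (SD, n = 6) and the female mean 22.8 ± 4.06 CPM (SD, n = 12). The log2 fold change of males against females was 0.86 (SE, standard error, 0.151), a 1.81-fold higher level. Against F1/proestrus it was 0.79 (SE 0.181) and against F2/metestrus 0.93 (SE 0.182), 2 values that share the male samples. With all 3 groups in 1 fit *Cntf* was called at an FDR of 5% against F2/metestrus but not against F1/proestrus, and with males and a single female group in the fit it was called against neither. Of the other 7 tested genes 0 were called against F1/proestrus, beside 0.0925% of all genes, and 0 against F2/metestrus, beside 0.129%. None of these 7 had all males above all F2/metestrus samples (0.318% of all genes) or above all F1/proestrus samples (0.177%). Against all 12 females, 0 of the 8 tested genes had every male above (0.0724% of all genes) or every male below (0.0523%).

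**Figure D2:**
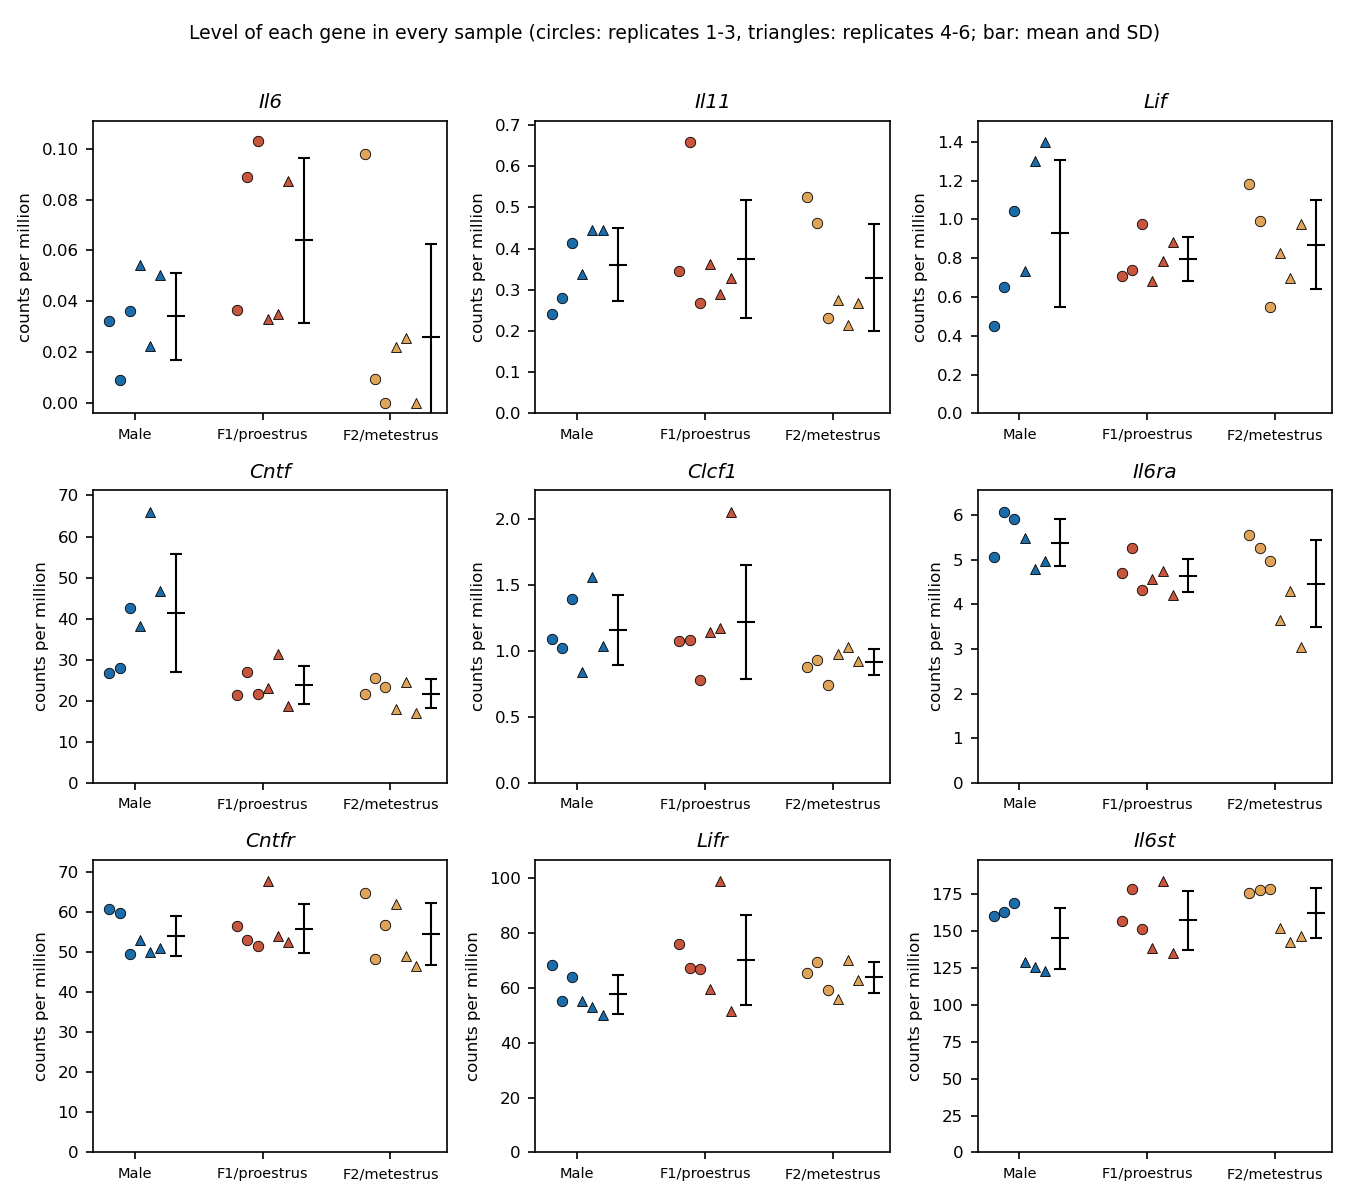
CPM of each of the 9 genes in every sample, by group, with circles for replicates 1 to 3, triangles for replicates 4 to 6 and a bar for mean and SD (n = 6). *Cntf* in males spans 26.7 to 66.0 CPM, above the 17.1 to 25.6 CPM of F2/metestrus, while in the other 8 genes the 3 groups overlap.

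The male values of *Cntf* were also read within each library series. Among replicates 1 to 3 the males had 26.7 to 42.6 CPM and the females 21.5 to 27.0 CPM, a log2 fold change of 0.45 (SE 0.135). Among replicates 4 to 6 the males had 38.1 to 66.0 CPM and the females 17.1 to 31.4 CPM, a log2 fold change of 1.19 (SE 0.194). The test of this difference between series, an interaction term in edgeR's quasi-likelihood test, gave 0.72 (SE 0.265) for *Cntf*, and 0.47 without Male replicate 5. It was chosen because unlike *Cntf* differences in the series were already known from these data, so its *Cntf* values are a description. Of all genes 0 passed this test (0.0%). Among the other 7 genes 1, *Il11*, had an unadjusted p under 0.05, beside 4.97% of all genes. Without Male replicate 5, the sample with the highest value, the log2 fold change of males against females was 0.66, and *Cntf* no longer passed an FDR of 5%. Without both Male replicate 5 and F1/proestrus replicate 5 it was 0.71 and *Cntf* passed.

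Schwann cell markers and *Zfp91*, read beside *Cntf*, had higher means in males as well. All 10 Schwann cell markers had a log2 fold change above 0 in males, beside 49.6% of all genes. Their median was 0.56 against -0.0013 over all genes, and 1 of them passed an FDR of 5%, beside 0.197% of all genes. This was *Ncmap*, a myelin protein gene of peripheral nerve that the study had also named from these samples. Its mean was 50.3 ± 12.2 CPM in the 6 males and 31.6 ± 4.34 CPM in the 12 females (SD). The summed level of the 10 markers was 2142 to 4980 CPM in males, 1483 to 2930 CPM in F1/proestrus and 1566 to 2188 CPM in F2/metestrus, and none of them was at 0. Per 100 CPM of this sum *Cntf* amounted to 1.22 to 1.58 CPM in males, 1.07 to 1.46 CPM in F1/proestrus and 0.906 to 1.38 CPM in F2/metestrus, ranges that overlapped. With the Schwann cell score as a covariate the log2 fold change of *Cntf* was 0.36 (SE 0.120) and *Cntf* did not pass. The sum of 8 astrocyte markers was alike in the groups, 3407 to 3873 CPM in males and 3455 to 4327 CPM in females. In bulk tissue more cells of a type and more RNA per cell cannot be told apart.

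*Zfp91* had 78.1 to 124.8 CPM in males and 68.5 to 83.1 CPM in females. The mean of males was 18.7 CPM higher for *Zfp91* and 18.6 CPM higher for *Cntf*. On the log2 scale *Zfp91* differed by 0.32 ± 0.0749 (SE), which edgeR's quasi-likelihood test with Benjamini-Hochberg adjustment over 24862 genes placed at an adjusted p of 0.112. The ratio of *Cntf* to *Zfp91* was 0.296 to 0.529 in males, 0.263 to 0.401 in F1/proestrus and 0.250 to 0.313 in F2/metestrus. Male replicate 5 was the highest sample in *Cntf*, in *Zfp91* and in the Schwann cell sum. The part of the Schwann cell markers and of shared reads in the male level of *Cntf* was not tested.

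**Figure D3:**
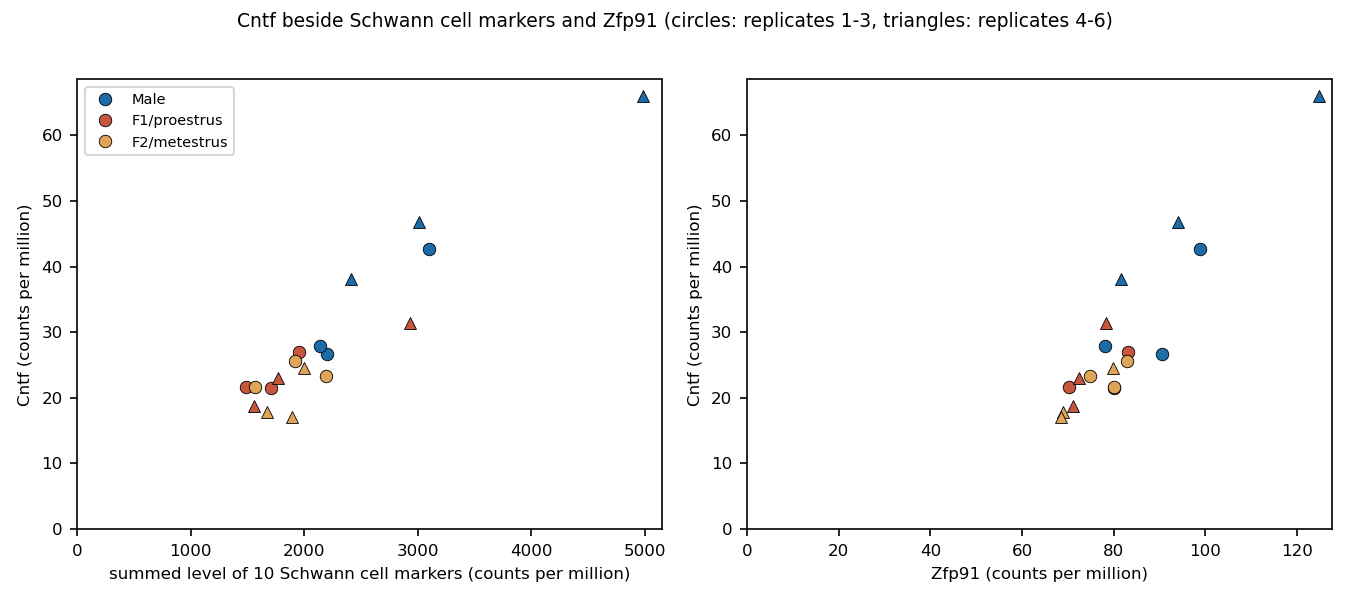
*Cntf* in CPM for each of the 18 samples against the summed CPM of 10 Schwann cell markers (left) and against *Zfp91* in CPM (right), with circles for replicates 1 to 3 and triangles for replicates 4 to 6. Male replicate 5 is highest on every axis, at 66.0 CPM of *Cntf* with a Schwann cell sum of 4980 CPM.

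Of the 8 genes of the family with enough counts to be tested, *Cntf* was called at an FDR of 5% between males and females, from which nothing is read since its values chose the family. Of the other 7 genes 0 passed, beside 0.197% of all genes tested, and their log2 fold changes lay between -0.22 and 0.24. *Lif*, the ligand named after its action on leukemia cells, is at 4257557 to 4272514 on the plus strand of chromosome 11. Its lowest, median and highest values were 0.449, 0.889 and 1.398 CPM in males, 0.682, 0.763 and 0.978 CPM in F1/proestrus and 0.551, 0.901 and 1.18 CPM in F2/metestrus. Male values extended both below and above the females, and the log2 fold change was 0.15 (95% confidence interval -0.26 to 0.57, edgeR adjusted p = 0.815).

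*Clcf1*, whose product binds the CNTF receptor, lies on the plus strand of chromosome 19 from 4214238 to 4223490, with 311 exon bases (8.17%) shared with *AC109138.7* on the same strand. It had 0.841 to 1.56 CPM in males with a median of 1.06, 0.782 to 2.06 CPM in F1/proestrus with a median of 1.12, and 0.738 to 1.03 CPM in F2/metestrus with a median of 0.929. The highest value came from F1/proestrus replicate 6. Males and females overlapped fully, with a log2 fold change of 0.12 (95% confidence interval -0.25 to 0.49, edgeR adjusted p = 0.845). It was 0.010 without Male replicate 5 and 0.24 without F1/proestrus replicate 6. *Il11*, a ligand with its own receptor chain, on the minus strand of chromosome 7 from 4772373 to 4782859, had 0.240 to 0.446 CPM in males with a median of 0.377, 0.268 to 0.658 CPM in F1/proestrus with a median of 0.337 and 0.216 to 0.525 CPM in F2/metestrus with a median of 0.272. Its log2 fold change was 0.03 (95% confidence interval -0.45 to 0.50, edgeR adjusted p = 0.978), and on the linear scale the interval reached from 0.730-fold to 1.42-fold.

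*Il6*, on the plus strand of chromosome 5 from 30013114 to 30019981, was close to the limit of detection in all groups. The 18 samples held 76 counts in total, 21 in males, 39 in F1/proestrus and 16 in F2/metestrus, and it did not pass the filter on low counts. The lowest, median and highest counts were 1, 4 and 6 in males, 3, 6 and 10 in F1/proestrus and 0, 1.5 and 11 in F2/metestrus. At most 3 counts were present in 8 of 18 samples, 5 of them F2/metestrus, and F2/metestrus replicate 1 alone held 11 of that group's counts. Males had a mean of 0.0340 ± 0.0170 CPM (SD, n = 6) and females one of 0.0449 ± 0.0386 CPM (SD, n = 12), with p = 0.526 in a two-sided exact permutation test over 18564 splits. A difference in *Il6* between the sexes was not detectable at this depth.

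**Figure D4:**
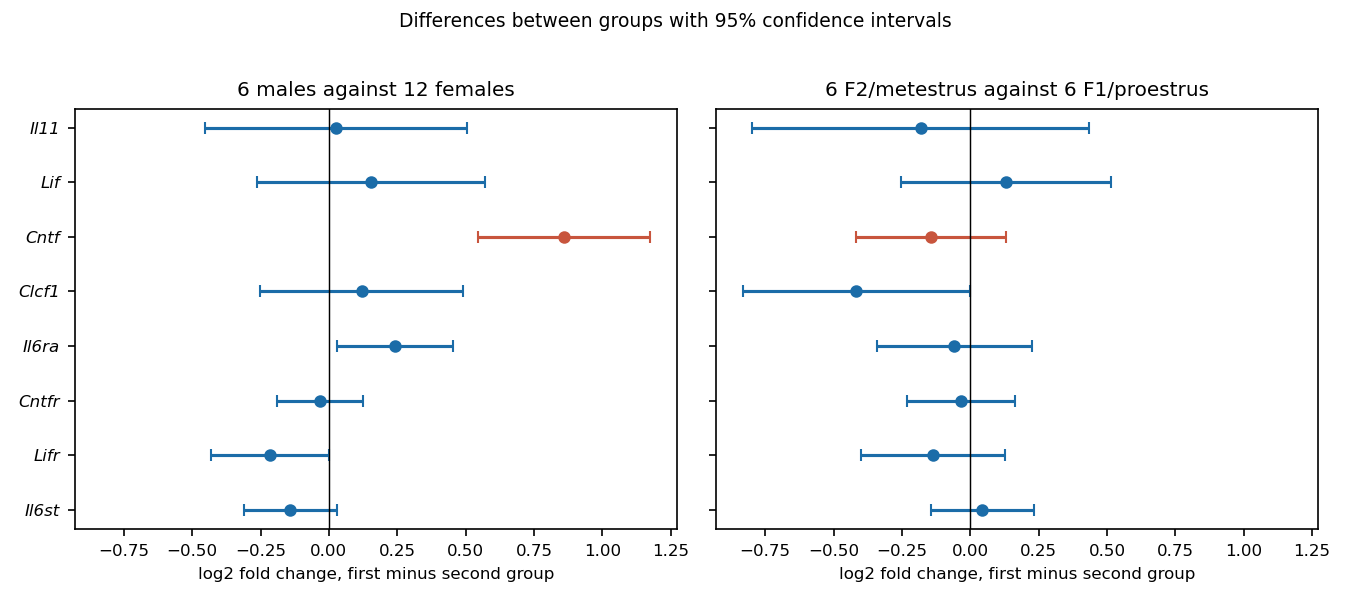
Log2 fold change with its 95% confidence interval for the 8 tested genes, males against females on the left (n = 6 and 12) and F2/metestrus against F1/proestrus on the right (n = 6 each). *Cntf* is drawn in red in both panels. On the left *Cntf* stands at 0.86, a description since its male values chose the family. Every other estimate there lies between -0.22 and 0.24, and on the right *Clcf1* is farthest from 0, at -0.42.

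Among the receptor chains *Il6st*, the shared gp130 chain on the plus strand of chromosome 13 from 112464070 to 112510086, had 123.3, 144.7 and 169.1 CPM as lowest, median and highest values in males. F1/proestrus had 135.1, 154.3 and 183.9 CPM and F2/metestrus 142.9, 164.2 and 178.8 CPM. The 3 males of replicates 4 to 6, with 123.3 to 129.4 CPM, lay below all 12 females, while those of replicates 1 to 3 lay within the female range. The log2 fold change of males against females was -0.14 (SE 0.0825, edgeR adjusted p = 0.577). *Lifr*, the LIF receptor chain on the plus strand of chromosome 15 from 7090614 to 7197489, had 50.2, 55.1 and 68.3 CPM in males, 51.4, 67.1 and 98.9 CPM in F1/proestrus and 56.1, 64.1 and 70.1 CPM in F2/metestrus. Its log2 fold change was -0.22 (SE 0.104), unadjusted p = 0.0487 and edgeR adjusted p = 0.514. The value of 98.9 CPM belongs to F1/proestrus replicate 5, the library with sensory ganglion markers, and leaving it out moved the value to -0.15.

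*Il6ra*, the chain that binds IL-6, on the minus strand of chromosome 3 from 89864059 to 89913196, had 4.79, 5.28 and 6.08 CPM in males, 4.21, 4.65 and 5.26 CPM in F1/proestrus and 3.05, 4.64 and 5.55 CPM in F2/metestrus. There were 2 of 6 males above all 12 females. Of its exon bases 242 (2.80%) also lie in *Gm42809* on the opposite strand, whose reads cannot be told apart without strand. The log2 fold change was 0.24 (SE 0.102), unadjusted p = 0.0277 and edgeR adjusted p = 0.445. Apart from *Cntf*, 2 of the 7 tested genes had an unadjusted p under 0.05, *Il6ra* and *Lifr*, beside 9.72% of all genes tested. *Cntfr*, the chain that binds CNTF, on the minus strand of chromosome 4 from 41657498 to 41697089, had the lowest coefficient of variation of the 9 genes. Its lowest, median and highest values were 49.5, 52.1 and 60.8 CPM in males, 51.5, 53.6 and 67.8 CPM in F1/proestrus and 46.6, 52.9 and 64.9 CPM in F2/metestrus. The log2 fold change was -0.03 with a 95% confidence interval of -0.19 to 0.12, or 0.876-fold to 1.09-fold.

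The female groups were compared to ask whether stage of the cycle and type of pain behavior go with these genes. Of the 8 genes tested 0 passed an FDR of 5% between F2/metestrus and F1/proestrus in edgeR's quasi-likelihood test, beside 0 of 24042 genes overall (0.0%), and DESeq2 called 2 genes overall (0.00453%) and none of the family. At an unadjusted p under 0.05 there was 1 of the 8, *Clcf1*, beside 596 genes overall (2.48%). *Clcf1* had 1.22 ± 0.433 CPM in F1/proestrus and 0.914 ± 0.0995 CPM in F2/metestrus (SD, n = 6 each), a log2 fold change of -0.42 (SE 0.194, unadjusted p of 0.0487). It was -0.21 without F1/proestrus replicate 6. The log2 fold changes of the other genes ranged from -0.18 for *Il11* to 0.13 for *Lif*. *Lifr* had -0.14 (SE 0.123), which became -0.01 without F1/proestrus replicate 5. *Cntf* had -0.14 with a 95% confidence interval of -0.42 to 0.13. *Il6* held 39 counts in F1/proestrus and 16 in F2/metestrus, 0.0640 ± 0.0324 and 0.0258 ± 0.0369 CPM (SD, n = 6 each, two-sided exact permutation test over 924 splits, p = 0.0714).

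With sex in the model *Il6st* was lower in replicates 4 to 6 than in replicates 1 to 3, with a log2 fold change of -0.25 (SE 0.0548, edgeR adjusted p = 0.00195). *Il6ra* was also lower there, by a log2 fold change of -0.25 (SE 0.0805, edgeR adjusted p = 0.0245). *Il6st* had 168.0 ± 10.4 CPM in the first series and 142 ± 18.4 CPM in the second, and *Il6ra* 5.24 ± 0.554 and 4.42 ± 0.729 CPM (SD, n = 9 each). Thus 2 of the 8 genes passed between the series, beside 27.7% of all genes, which is a share near that of all genes. Within the first series the log2 fold changes of males against females were -0.07 for *Il6st*, -0.12 for *Lifr* and 0.17 for *Il6ra*, against -0.24, -0.33 and 0.32 in the second. *Lif* and *Il11* changed sign between the series, from -0.28 to 0.51 and from -0.44 to 0.51. The interaction terms of *Lif* and *Il11* were 0.77 (SE 0.371) and 0.92 (SE 0.422), both at an edgeR adjusted p = 0.964. What the library numbers stand for is not given in the sources used here.

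For each gene the most similar genes were taken by the Pearson correlation of log2 CPM over the 18 samples, among 17763 genes with a mean of at least 1 CPM. The samples share libraries, depth and tissue makeup, so these values are a description. *Cntf* was closest to *Sbspon* (r = 0.96), *Art3* (0.95) and *Mlip* (0.95). *Lifr* was closest to *Asap1* (0.91), *Ccser2* (0.88) and *Cast* (0.88), and *Il6st* to *Lrrc8b* (0.93), *Plekhm3* (0.92) and *Robo2* (0.92). *Il6ra* was closest to *Alk* (0.79), *Rassf4* (0.78) and *Mertk* (0.78). The best match over all samples was lower for *Clcf1*, *D630008O14Rik* (0.78) with *Npy* (0.77) and *Shank2* (0.76) next, for *Il11*, *Grpr* (0.76), *Kl* (0.75) and *A730046J19Rik* (0.72), for *Cntfr*, *Tmed9* (0.76) and *Rhot2* (0.73), and for *Lif*, *Ppp1r8* (0.75), *Dync2li1* (0.74) and *Mindy4* (0.72). This order did not hold within group and library series, where the r of *Il6ra* was 0.56 with *Alk*, 0.46 with *Rassf4* and 0.65 with *Mertk*, while it was 0.87 for *Cntf* with *Sbspon*, 0.76 for *Il6st* with *Lrrc8b*, 0.77 for *Clcf1* with *D630008O14Rik* and 0.83 for *Lif* with *Ppp1r8*. Within the family the closest pair was *Lifr* and *Il6st* (r = 0.65), the 2 chains that form the LIF receptor, while *Cntf* had -0.29 with *Cntfr* and -0.20 with *Lifr*.

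The remaining genes of the pathway were read from lists chosen with results of these data known. Of 11 further ligands and receptors of the gp130 family 9 were tested, 4 above and 5 below 0 in males, with a median log2 fold change of -0.06. Of them 0 passed an FDR of 5%, beside 0.197% of all genes. The highest of them per exon length were *Il11ra1*, the receptor chain of IL-11, with 6.86 ± 0.751, and *Ctf1*, which encodes cardiotrophin-1, with 1.18 ± 0.210 CPM per kilobase (SD, n = 18). Thus *Il11ra1* was 6.86 where its ligand *Il11* was 0.171 on the same scale. Of 16 JAK-STAT signal transducers and brakes 16 were tested, 6 above and 10 below 0, with a median of -0.06 and 0 called. *Jak1*, a kinase that binds gp130, had the highest level of these, 37.4 ± 4.46, followed by *Adam10*, a protease that sheds receptor chains, with 19.7 ± 2.95 CPM per kilobase (SD, n = 18).

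Of all genes tested 49.6% were above 0 in males and 0.197% passed an FDR of 5%. Of 19 STAT3 target genes all were tested, 14 above and 5 below 0 in males with a median log2 fold change of 0.13, and 1 passed. This was *Lcn2*, which encodes lipocalin 2, a protein of neutrophils and reactive astrocytes. The study had named *Lcn2*, *Mpo* and *Grp* from these samples, so their calls are not independent evidence of direction. *Lcn2* had a male mean of 9.70 ± 5.66 CPM (SD, n = 6), a female mean of 2.47 ± 0.647 CPM (SD, n = 12) and a log2 fold change of 1.97 (SE 0.255). *Socs3* and *Gfap*, named after their values were seen as the feedback brake and the astrocyte gene of the list, differed by 0.26 (edgeR adjusted p = 0.515) and -0.04 (edgeR adjusted p = 0.877) on the log2 scale. Neutrophil markers were read beside *Lcn2*. All 8 tested ones had a log2 fold change above 0 in males, with a median of 1.39, their sum was 5.81 to 32.4 CPM in males and 2.06 to 11.0 CPM in females, and 1 passed, *Mpo*, which encodes myeloperoxidase. Their part in the level of *Lcn2* was not tested with these counts. By flow cytometry the study identified most LCN2-positive immune cells of the male pia mater as neutrophils. Their share rose after formalin in males and not in females. That measure is of protein in cells of the pia mater, not of RNA in DHSC. By RT-qPCR the study found *Lcn2* in DHSC above naive mice in males but not in females. Between the female groups 0 genes of any of these lists passed.

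**Figure D5:**
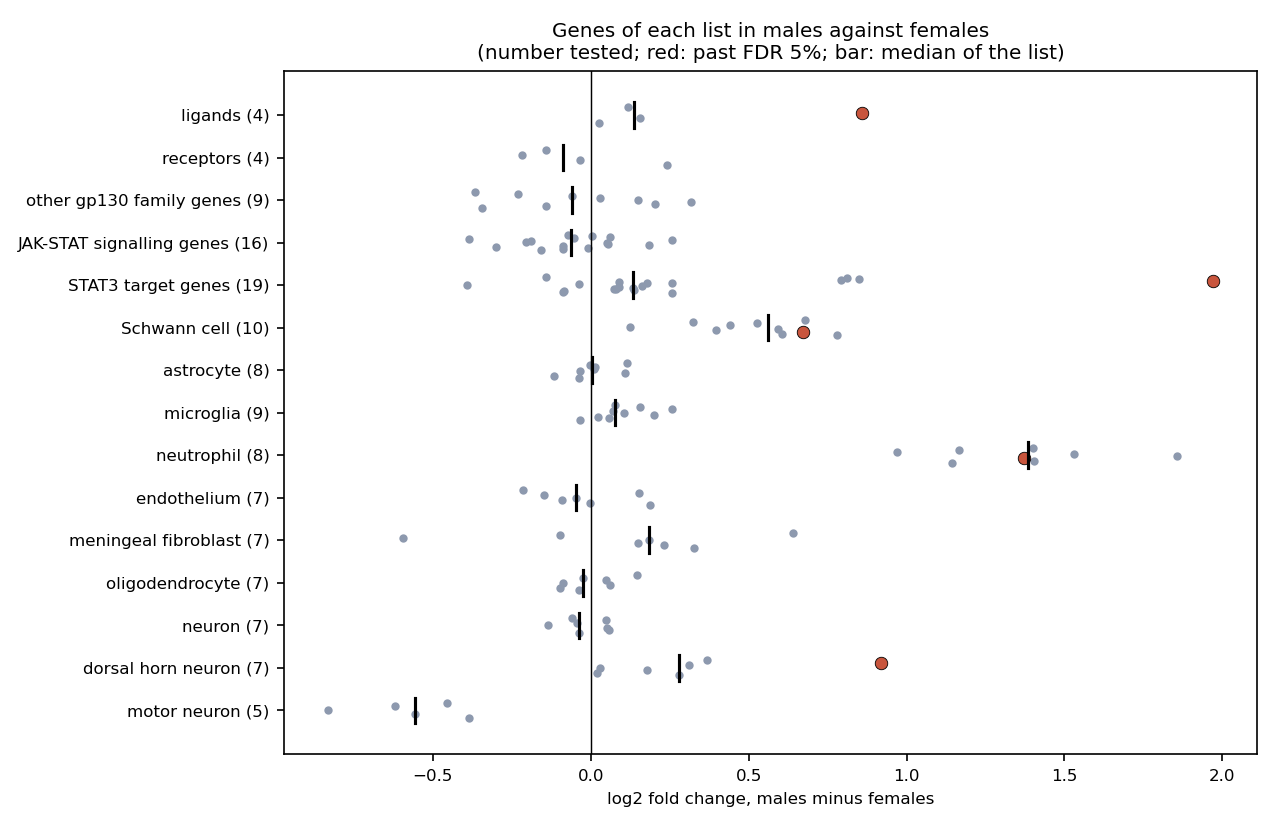
Log2 fold change of males against females (n = 6 and 12) for each tested gene of the family, of its pathway lists and of cell type marker lists, with red points past an FDR of 5% and a bar at the median of each list. Schwann cell markers lie all above 0 with a median of 0.56 and neutrophil markers with a median of 1.39, whereas the JAK-STAT genes spread around a median of -0.06. The sensory ganglion list, set by 1 library, is not drawn.

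Of all genes tested 49.6% were above 0 in males and 0.197% passed an FDR of 5%. Among the other marker lists 7 of 7 dorsal horn neuron genes were above 0 in males with a median of 0.28. Of these 1 passed, *Grp*, which encodes gastrin-releasing peptide. All 5 motor neuron genes were below 0 with a median of -0.56 and 0 passed. Microglia (8 of 9 above 0, median 0.08), endothelium (2 of 7, median -0.05), meningeal fibroblasts (5 of 7, median 0.19), oligodendrocytes (3 of 7, median -0.02), astrocytes (4 of 8, median 0.003) and neurons (3 of 7, median -0.04) had 0 genes past the threshold. Of the 5 tested sensory ganglion genes all were below 0, with 0 past the threshold. This list was set by 1 library, F1/proestrus replicate 5. Against F1/proestrus all 5 were below 0 with a median of -5.65. Against F2/metestrus 3 were below and 2 above 0, with a median of -0.20.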

How the data were processed

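RNA-Seq counts were examined for 18 ipsilateral DHSC samples, 6 per group, with groups taken from the sample labels. The authors deposited raw counts of reads on exons for 55573 genes, made by unique mapping to mm10 with Subread (version 2.0.3 per the labels, another version in the paper's methods) and counting with featureCounts. Strand and multi-gene reads are not described. The methods name TruSeq libraries, the labels SMART-Seq amplification with Nextera XT, without strand information. From the authors' table of DESeq2 values for 1 comparison only gene symbols were read.

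Positions are those of GENCODE vM21 (GRCm38), where 55480 IDs were found. The whole table was tested with edgeR 4.0.16 in R 4.3.3 (filterByExpr with a minimum count of 10 and a minimum total of 15, TMM, quasi-likelihood test, Benjamini-Hochberg FDR of 5%) after testing on simulated data. SE was |log2 fold change| over the root of F. *Il6* was compared with scipy 1.17.1. Alternatives were DESeq2 1.42.0, its size factors, no filter, the replicate number as a block, library series, a Schwann cell score (mean centred log2 CPM, prior count of 2), single female groups, 3 groups in 1 fit and leaving out samples.

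The members, lists and tests were chosen with earlier results of these data known. Named were all members, list genes past the threshold (otherwise the 2 highest per exon length of a pathway list) and the 3 most correlated genes, of which 1 for *Cntfr* is not reported here.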

Additional observations from a re-analysis of the deposited data

Results flagged for a closer look

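In 4 of 27 groups of 6 values, a group being 1 gene in 1 of the 3 sample groups, 1 sample stood apart from the other 5 by more than Dixon's 95% limit, which chance passes in about 1 of 20 groups. F2/metestrus replicate 1 had 0.0979 CPM of *Il6*, against 0 to 0.0254 CPM in the rest of its group. F1/proestrus replicate 2 had 0.658 CPM of *Il11*, against 0.268 to 0.363 CPM. F1/proestrus replicate 6 had 2.06 CPM of *Clcf1*, against 0.782 to 1.17 CPM, and F1/proestrus replicate 4 had 67.8 CPM of *Cntfr*, against 51.5 to 56.6 CPM. All 4 were the highest sample of a female group, and no male sample was beyond the limit in any of the 9 genes.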

How the results depend on the processing

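Between males and females 49 genes were called, and 44 with DESeq2 size factors, 48 without a filter and 44 with 3 groups in 1 fit. DESeq2 called 158, the replicate block 148 and the library series as covariate 134. The Schwann cell score as covariate left 23, replicates 1 to 3 alone 16, replicates 4 to 6 alone 13, F1/proestrus alone as the female group 13 and F2/metestrus alone 22. Leaving out 1 sample gave 25 (without Male replicate 5) to 77 (without F1/proestrus replicate 5) and 30 without Male replicate 4. Leaving out both replicates 5, chosen after seeing the data, gave 30. *Cntf* was called in 17 of 18 fits that left out 1 sample, a range of 0 to 1 of the family, with log2 fold changes of 0.66 to 0.95. The male values of *Cntf* chose the family, so its calls show only on which samples they rest. The count of the family was 0 without Male replicate 5 (0.66), with the Schwann cell score (0.36), in replicates 1 to 3 (0.45) or 4 to 6 (1.19) alone and with F1/proestrus (0.78) or F2/metestrus (0.92) alone, where fewer samples entered all but the score's fit. The cause was not tested. Between the female groups DESeq2 called 2 genes, all other settings 0. For the difference between series DESeq2 called 13 genes and 0 of the family. Only 3658 genes, 1 of them of the family, had an adjusted p there, against 24862 genes and 8 of the family in edgeR.

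*Cntf*, the one gene of the family called, was higher in males in each setting. That direction chose the family, so nothing is read from it. Between males and females the log2 fold change of *Il11* became -0.21 with the Schwann cell score, -0.44 in replicates 1 to 3, -0.073 against F1/proestrus alone and -0.081 without both replicates 5, and ranged from -0.058 to 0.14 when 1 sample was left out. *Lif* became -0.046 with the score and -0.28 in replicates 1 to 3, with a range of -0.011 to 0.29. *Clcf1* became -0.083 in replicates 4 to 6 and -0.080 against F1/proestrus alone, with a range of 0.010 to 0.24 when 1 sample was left out, and *Cntfr* 0.070 with the score and 0.024 in replicates 1 to 3. Between the female groups replicates 1 to 3 gave 0.00067 for *Cntf*, 0.14 for *Il6ra* and 0.072 for *Cntfr*, and replicates 4 to 6 gave -0.050 for *Il6st*. Leaving out 1 sample there gave -0.37 to 0.061 for *Il11*, -0.13 to 0.033 for *Il6ra* and -0.091 to 0.027 for *Cntfr*.

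The replicate numbers did not clearly pair the samples. Correlations of same-numbered samples ran from -0.105 to 0.228, with a median of 0.082 and 9 of 18 over 0.1. Those of other numbers in the same series ran from -0.090 to 0.247, with a median of 0.098 and 18 of 36 over 0.1. Of the 18 samples 7 correlated best with their own number. Under the replicate block *Cntf* was called with 0.83, from which nothing is read, and 148 genes were called in all. Depth limits *Il6*, with at most 11 counts a sample, and leaves the intervals of *Il11*, *Lif* and *Clcf1* wide.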
